A study of Homo sapiens with 12 samples.

Results

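The vehicle controls of 2 melanoma lines were compared: A375, which responds to the BRAF inhibitor dabrafenib, and A375-BIR, the resistant line grown out of it by culture in rising dabrafenib. The members are the 6 samples labelled as kept in DMSO, 3 of A375 and 3 of A375-BIR, of 12 samples in the series. All 6 were held in 0.1% DMSO for 48 h with no inhibitor. Small RNA was sequenced, and every value is an expected count of a miRNA precursor gene. A375-BIR is a single derived line, so that resistance and any other change that came with this derivation cannot be told apart. Both lines descend from the same tumour cells and carry an activated BRAF kinase. Fold changes are given throughout as the resistant line over the sensitive line on the log2 scale, with the standard error (SE).

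A miRNA is cut from a hairpin precursor and guides silencing of messenger RNAs that pair with its seed, bases 2 to 8 of the mature strand. Members of a seed family therefore share most of their targets, and precursors transcribed as one unit from a locus tend to share their regulation. In melanoma, miR-204 and miR-211 belong to the pigment-cell programme, miR-146a and miR-155 are induced by NF-kB, and miR-221 and miR-222 respond to growth-factor signalling.

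Mature strands of families whose members moved apart or together, and of some precursors with large differences, are printed first, with the seed in capitals, from 5′ to 3′ and from RefSeq (GRCh38.p14). The strand usually kept from each hairpin is shown, since the counts do not separate the arms. The miR-146 pair is shown because both carry one seed and moved in opposite directions. The 2 strands differ at 2 of the 22 positions compared, counted from the 5′ end, by G18A and U21C from miR-146a to miR-146b.
miR-146a-5p: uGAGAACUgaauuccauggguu
miR-146b-5p: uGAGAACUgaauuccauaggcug

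The let-7 strands are shown because this family took most of the counts and its members also moved in opposite directions. Going from let-7a to let-7c there is a single change, A19G, and going from let-7b to let-7c a single change, G17A, so that reads of these members are separated by very few bases. From let-7a to let-7i there are 4 changes and from let-7a to miR-98 there are 2.
let-7a-5p: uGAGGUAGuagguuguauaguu
let-7b-5p: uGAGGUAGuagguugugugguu
let-7c-5p: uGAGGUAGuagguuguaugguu
let-7i-5p: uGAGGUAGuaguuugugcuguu
miR-98-5p: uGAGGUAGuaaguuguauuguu

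The miR-30 strands shown are those of members that rose, by differing amounts, while other members with this seed fell. The miR-148 strands are shown because miR-148a fell while miR-148b, less firmly, rose. The miR-30a and miR-30e strands differ by C13U only, and the miR-148 strands differ by C9U and U10C, just after the seed.
miR-30a-5p: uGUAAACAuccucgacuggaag
miR-30c-5p: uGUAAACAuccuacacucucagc
miR-30e-5p: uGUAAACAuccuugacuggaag
miR-148a-3p: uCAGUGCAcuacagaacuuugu
miR-148b-3p: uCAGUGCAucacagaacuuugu

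The miR-221 and miR-222 strands are shown as a pair with one seed that rose together, although 10 of their 21 compared positions differ. The remaining strands belong to some of the precursors with large differences in either direction, and none of them shares a seed with another.
miR-221-3p: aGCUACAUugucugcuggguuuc
miR-222-3p: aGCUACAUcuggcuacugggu
miR-31-5p: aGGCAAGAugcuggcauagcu
miR-1269a: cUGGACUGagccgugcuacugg
miR-182-5p: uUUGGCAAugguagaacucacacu
miR-155-5p: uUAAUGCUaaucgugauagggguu
miR-204-5p: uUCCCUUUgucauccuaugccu
miR-509-3p: uGAUUGGUacgucuguggguag

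The expected counts summed to 77264, 121802 and 86898 in the A375 samples and to 106427, 120625 and 122792 in the A375-BIR samples. Of 1881 precursor rows, 846 had an expected count above 0 in at least 1 of the 6 samples, and 175 passed the filter on low counts and were tested. The tested rows held between 99.1% and 99.4% of the counts of a sample. Levels are in CPM, counts scaled to a common library total after TMM normalization. Because a count of 0 leaves room for up to 3, an absent precursor is bounded only at 20.7 CPM in A375-BIR replicate 3, the deepest sample, and at 35.9 CPM in A375 replicate 1, the shallowest. These limits cover counting error only. The bounds below allow for it only in the line without counts.

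A375-BIR replicate 3 stood apart from its group. Its log2 CPM correlated with those of A375-BIR replicates 1 and 2 at Pearson r = 0.968 and 0.970, across the 175 tested precursors, while replicates 1 and 2 correlated at 0.990 with each other. In A375 the correlations lay between 0.981 and 0.986. Precursors are not independent replicates, and these values describe the samples only. In A375-BIR replicate 3, MIRLET7I stood at 60385 CPM against 102791 and 105481 CPM in the others. Rows that resemble ribosomal RNA took 3.49, 3.22 and 5.59% of the counts in A375 and 2.65, 2.67 and 4.57% in A375-BIR, with the highest share of each line in replicate 3. For the named precursors and families, calls and signs that change without this sample are given below.

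Without drug, the lines differed in a large part of the tested precursors. Tested with the quasi-likelihood F test of edgeR, with p values adjusted by Benjamini-Hochberg and a threshold of FDR 0.05, 81 of 175 precursors (46.3%) differed, 53 higher in A375-BIR (30.3%) and 28 lower (16%). Among the 81 called precursors, 58 differed by more than 2-fold and the median fold was 2.30. The groups of 3 samples did not overlap for 107 precursors (61.1%). Without A375-BIR replicate 3, 80 precursors were called, 46 higher and 34 lower, and 73 of them were among the 81 with the same direction.

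The split between higher and lower depended on the scaling. The median log2 fold change of all tested precursors was 0.16 with TMM and 0.00 with DESeq2's size factors, a shift of -0.16. With those size factors 43 precursors were higher and 38 lower, which is 53.1% higher against 65.4% with TMM. Differences near this shift are therefore scaling-dependent, while those of the precursors named at either end exceed it.

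**Figure D1:**
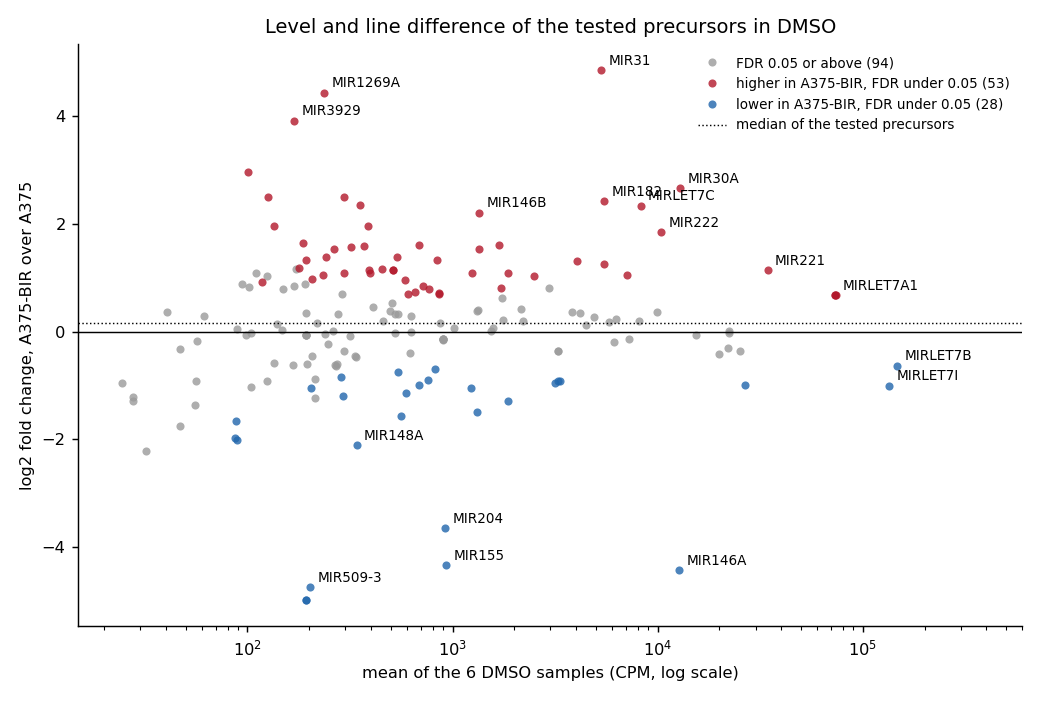
Each point is 1 of the 175 tested precursors, with its mean over the 6 DMSO samples in CPM on a log x axis and its log2 fold change, A375-BIR over A375, on the y axis. Red and blue mark the 53 higher and 28 lower precursors at an FDR under 0.05, and the dotted line marks the median of 0.16.

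Among the 175 tested precursors, MIR31, a miRNA known for effects on invasion and growth in several tumours, separated the lines most strongly upward. Its values were 311, 364 and 379 CPM in the A375 samples and 10246, 10415 and 10034 CPM in the A375-BIR samples. All A375-BIR samples were high, with hardly any spread, and the groups lay far apart. The log2 fold change was 4.85 ± 0.20 (SE, edgeR FDR = 1.15e-10). The precursor lies on chromosome 9 in hg38 (21512115 to 21512185, minus strand), in an intron of its host long non-coding RNA gene MIR31HG. MIR1269A rose from 12, 15.2 and 31.5 CPM to 525, 455 and 380.3 CPM, by a log2 fold change of 4.44 ± 0.40 (SE, edgeR FDR = 4.86e-07). Its A375 values rest on 1, 2 and 3 counts, so this precursor was close to the counting limit in the sensitive line. It lies on chromosome 4 (66276824 to 66276928, plus strand) with no host gene on its strand.

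MIR30A and MIR182 were higher in A375-BIR at levels well above the counting limit in every sample. MIR30A stood at 3496, 3827 and 3259 CPM in A375 and 25709, 23614 and 17606 CPM in A375-BIR, a log2 fold change of 2.66 ± 0.19 (SE, edgeR FDR = 4.48e-08). It lies in an intron of LINC00472 on chromosome 6 (71403551 to 71403621, minus strand). For MIR182, which targets FOXO factors and MITF and is often raised in melanoma, the values were 1664, 1754 and 1766 CPM and 9874, 8133 and 9819.8 CPM, a log2 fold change of 2.42 ± 0.17 (SE, edgeR FDR = 3.16e-08). Its neighbour MIR183 had 7, 2 and 7 counts in A375 and 22, 21 and 39 in A375-BIR, with a log2 fold change of 1.96 ± 0.66 (SE, edgeR FDR = 0.0252). That call was lost without A375 replicate 2 (log2 fold change 1.42, edgeR FDR = 0.133) and without A375-BIR replicate 3 (1.73, edgeR FDR = 0.0616).

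Further precursors at the upper end were MIRLET7C, MIR146B, MIR210 and MIR196B. MIRLET7C stood at 2718, 2855 and 2607 CPM in A375 and 15165, 14987 and 11209.7 CPM in A375-BIR, a log2 fold change of 2.34 ± 0.16 (SE, edgeR FDR = 3.16e-08). MIR146B had 575, 342 and 526 CPM and 2555, 1584 and 2489.5 CPM, a log2 fold change of 2.21 ± 0.28 (SE, edgeR FDR = 2.06e-05). Both precursors were high in all A375-BIR samples. MIR210, the standard hypoxia-induced miRNA, had 179.6, 98.7 and 73.6 CPM and 670.4, 784 and 318 CPM, a log2 fold change of 2.35 ± 0.42 (SE, edgeR FDR = 3.79e-04). MIR196B, encoded in the HOXA cluster, had 108, 83.5 and 73.6 CPM and 462, 651 and 387 CPM, a log2 fold change of 2.49 ± 0.31 (SE, edgeR FDR = 1.78e-05). In none of these 4 did the groups overlap, which the choice of precursors requires.

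Among the highest log2 fold changes, 3 rested on few counts and moved with single samples. MIR3929 had 3.50, 0 and 1.5 counts in A375 and 13.5, 24.5 and 90.3 in A375-BIR, a log2 fold change of 3.92 ± 0.92 (SE, edgeR FDR = 0.00354). Without A375-BIR replicate 3 it was 2.92, without A375 replicate 1 it was 4.94, and without A375 replicate 2 it was 3.19. MIR622 had 2.06, 3.54 and 1 and 10.6, 14.8 and 47.2 counts, a log2 fold change of 2.96 ± 0.84 (SE, edgeR FDR = 0.0112), and without A375-BIR replicate 3 it fell short of the threshold (2.17, edgeR FDR = 0.0505). MIR598 had 4, 3 and 4 and 40, 28 and 9 counts, a log2 fold change of 2.50 ± 0.67 (SE, edgeR FDR = 0.00663), which was 1.89 without A375-BIR replicate 1. The sizes of these differences are therefore poorly determined.

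MIR146A and MIR155 were among the precursors with the largest falls. MIR146A, a feedback inhibitor of NF-kB signalling, had 24735, 22209 and 25938 CPM in A375 and 906, 1019.5 and 1425 CPM in A375-BIR. Every A375 sample lay far above every A375-BIR sample, and the log2 fold change was -4.44 ± 0.22 (SE, edgeR FDR = 1.21e-09). The gene is exonic in MIR3142HG on the plus strand of chromosome 5 (160485352 to 160485450). MIR155, processed from an exon of MIR155HG on chromosome 21 (25573980 to 25574044, plus strand), followed the same direction. It had 1688, 1746 and 1882 CPM in A375 and 45.3, 125 and 83.0 CPM in A375-BIR, a log2 fold change of -4.34 ± 0.41 (SE, edgeR FDR = 7.06e-07). The A375-BIR values of MIR155 come from 5, 16 and 12 counts.

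MIR204, a miRNA of pigment cells, and the X-linked miR-509 cluster were also low in A375-BIR. MIR204 lies in an intron of TRPM3 on chromosome 9 (70809975 to 70810084, minus strand) and had 1892, 1609.7 and 1619 CPM in A375 and 163, 102 and 138 CPM in A375-BIR, a log2 fold change of -3.66 ± 0.35 (SE, edgeR FDR = 8.82e-07). For MIR509-3 the values were 395, 402 and 379 CPM and 9.06, 23.5 and 6.92 CPM, with a log2 fold change of -4.75 ± 0.38 (SE, edgeR FDR = 1.10e-07). Its A375-BIR values come from 1.33, 3 and 1.33 counts, and without A375-BIR replicate 2 the log2 fold change was -5.37. MIR509-1 and MIR509-2 gave identical values, with -4.98 for each, and since the copies share reads they are a single measurement. Summed over the 3 copies the log2 fold change was -4.83 ± 0.31 (SE, edgeR FDR = 6.27e-09).

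The remaining low precursors at this end were MIR148A, the miR-199 precursors, MIR584 and MIR98. MIR148A, a repressor of the melanocyte factor MITF, had 575, 516 and 578 CPM in A375 and 109, 118 and 152 CPM in A375-BIR, a log2 fold change of -2.11 ± 0.28 (SE, edgeR FDR = 3.47e-05). MIR199A1 had 144, 137 and 147 CPM and 45.3, 31.4 and 27.7 CPM, a log2 fold change of -2.01 ± 0.49 (SE, edgeR FDR = 0.00362). Its copy MIR199A2 and the related MIR199B were at -1.97 and -1.66. The miR-199 rows had nearly the same fractional counts in most samples, so they are not separate measurements. MIR584 had 838, 737 and 936 CPM and 308, 282 and 256 CPM, a log2 fold change of -1.56 ± 0.21 (SE, edgeR FDR = 3.15e-05). MIR98, a let-7 family member, had 2239, 1427 and 2155 CPM and 752, 698 and 609 CPM, a log2 fold change of -1.50 ± 0.28 (SE, edgeR FDR = 5.41e-04). No groups of these precursors overlapped, which the choice of precursors requires.

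**Figure D2:**
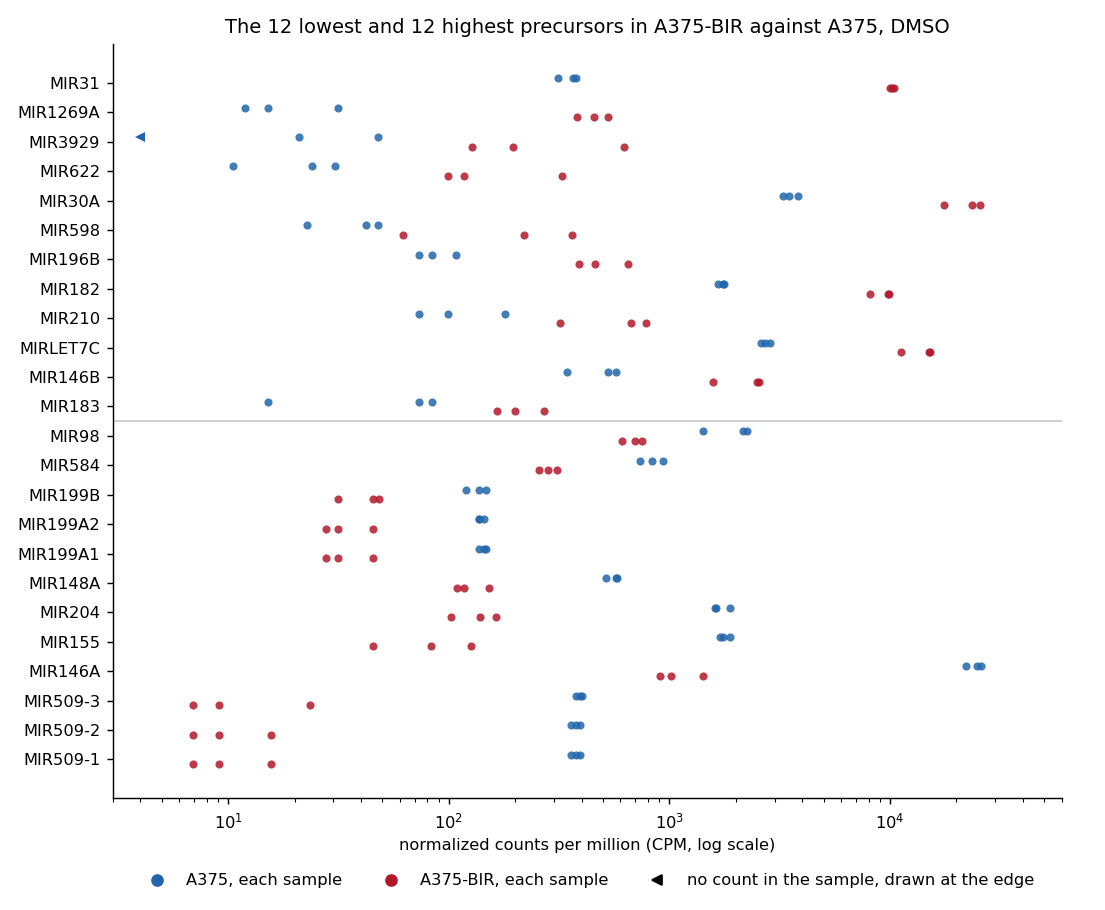
Each point is 1 sample, with normalized CPM on a log x axis, for the 12 precursors with the lowest and the 12 with the highest log2 fold change among those past the FDR threshold with separate groups. The A375 points (blue) and A375-BIR points (red) of each precursor do not overlap, which the choice of precursors requires, and the triangle marks MIR3929 in A375 replicate 2, where there was no count.

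Summing the precursors of each seed family removes the uncertainty of how reads were divided among copies. Of 117 families and single units tested, 45 differed (38.5%), 28 higher in A375-BIR (23.9%) and 17 lower (14.5%). Of the 39 listed seed families, 22 had at least 2 tested precursors. In 10 of these 22 the called precursors were all higher in A375-BIR, in 2 all lower, in 4 they went in both directions, and in 6 no precursor was called. Over all tested precursors 30.3% were higher and 16% lower. In miR-10, miR-17 and miR-27 a single precursor was called, so it could have no other direction beside it. The called members of miR-7 and miR-125 are copies, and the lower families, miR-199 and miR-509, rest on nearly the same counts. Such families do not show separate members moving together. The 4 families with both directions were let-7, miR-30, miR-146 and miR-148.

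The let-7 family shows most plainly that members with one seed can move apart while their sum is not called. The sum stood at 597882, 649824 and 559641 CPM in A375 and 602936, 602581 and 436286 CPM in A375-BIR, overlapping between the lines, with a log2 fold change of -0.14 ± 0.17 (SE, edgeR FDR = 0.515). As a share of all counts, it was 63.3, 63.1 and 61.6% in A375 and 58.8, 59.8 and 52.3% in A375-BIR, lower without overlap. All 12 let-7 precursors were tested, and 4 were higher and 6 lower in A375-BIR, against 30.3% higher and 16% lower over all tested precursors. Of the 4, 3 are copies of let-7a that share reads. The 3 precursors of let-7a rose, MIRLET7A1 from 58534, 50690.1 and 60423 CPM to 95227, 92463 and 84388 CPM, a log2 fold change of 0.68 ± 0.11 (SE, edgeR FDR = 1.64e-04). MIRLET7I fell from 189826, 190331 and 159843 CPM to 102791, 105481 and 60385 CPM, a log2 fold change of -1.01 ± 0.22 (SE, edgeR FDR = 0.00162). MIRLET7B fell less, from 169987, 193216 and 173101 CPM to 128455, 130475 and 87036 CPM, a log2 fold change of -0.63 ± 0.15 (SE, edgeR FDR = 0.00337). MIRLET7F1, MIRLET7F2 and MIRLET7D were lower as well, with -0.92, -0.95 and -0.92. MIRLET7G, at -0.42, did not pass (edgeR FDR = 0.0903), but passed with total counts in place of TMM (edgeR FDR = 0.0491) and without A375-BIR replicate 2 (edgeR FDR = 0.0205).

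As shares of all let-7 counts, let-7a took 30, 26 and 32.1% in the A375 samples and 50.2, 48.9 and 56.9% in the A375-BIR samples. The share of let-7i was 32.4, 32.6 and 28.4% in A375 and 18.1, 18.6 and 13.6% in A375-BIR, and that of let-7b was 29.1, 33.1 and 30.8% and 22.7, 23.1 and 19.6%. For let-7c the share was 0.465, 0.490 and 0.464% and 2.67, 2.65 and 2.52%. The make-up of the family thus shifted toward let-7a and let-7c in every A375-BIR sample. MIRLET7B, MIRLET7I and the let-7a precursors were also the 5 precursors with the most counts, which together took 57.9, 57.9 and 56.2% of all counts in A375 and 53.5, 54.2 and 47.2% in A375-BIR. Because these few precursors hold so much of each sample, the CPM of every other precursor is read relative to them.

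In the miR-30 family, whose members are widely expressed and restrain several growth and differentiation factors, all 6 precursors were tested and called, against 46.3% of all tested precursors, 4 higher and 2 lower in A375-BIR. MIR30C2 rose from 718, 805 and 967 CPM to 2854, 2808 and 1929 CPM, a log2 fold change of 1.60 ± 0.23 (SE, edgeR FDR = 5.68e-05). MIR30C1, its copy, was at 1.53 and MIR30E at 0.70 (edgeR FDR = 0.0252). The call of MIR30E was lost with DESeq2's size factors and whenever one of 5 samples other than A375-BIR replicate 3 was left out, with the log2 fold change between 0.63 and 0.75 without 1 sample. MIR30D fell from 32111, 49521 and 24960.0 CPM to 19866, 17238 and 16763 CPM, a log2 fold change of -0.99 ± 0.20 (SE, edgeR FDR = 9.63e-04), and MIR30B followed at -0.99 (edgeR FDR = 0.00350). As a share of the family's counts, miR-30a rose from 9.08, 6.82 and 10.4% in A375 to 49.5, 50.1 and 45.4% in A375-BIR. The share of miR-30d fell from 83.4, 88.3 and 79.8% to 38.2, 36.5 and 43.2%. The sum of the family overlapped between the lines, at 39333, 62459.6 and 31119.7 CPM and 55271, 50221 and 38112 CPM, a log2 fold change of 0.11 ± 0.24 (SE, edgeR FDR = 0.742).

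In the miR-146 pair the prevailing member differed between the lines. Of its counts miR-146a took 97.7, 98.5 and 98.0% in the A375 samples and 26.1, 39.1 and 36.4% in the A375-BIR samples, with the rest on miR-146b. The sum of both fell from 25875, 25126 and 26330.4 CPM to 3679.6, 2772 and 3843 CPM, a log2 fold change of -2.91 ± 0.18 (SE, edgeR FDR = 4.76e-09). In the miR-148 family MIR148A was low in A375-BIR while MIR148B stood at 539, 342 and 315 CPM in A375 and 806, 1082 and 422 CPM in A375-BIR, which overlap. The log2 fold change of MIR148B was 0.96 ± 0.35 (SE, edgeR FDR = 0.0336), and the call was lost with DESeq2's size factors (edgeR FDR = 0.0967) and without A375-BIR replicate 2 (0.62, edgeR FDR = 0.177). It was also lost in the fit of only the 6 DMSO samples (edgeR FDR = 0.0636), with the filter on those samples (edgeR FDR = 0.0728), and without A375-BIR replicate 1 or A375 replicate 2 or 3, so this call is unsteady, although the log2 fold change stayed above 0 under every alternative. The sum of miR-148a, miR-148b and miR-152 had a log2 fold change of 0.01 ± 0.25 (SE, edgeR FDR = 0.988), with a sign that turned under most alternatives.

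**Figure D3:**
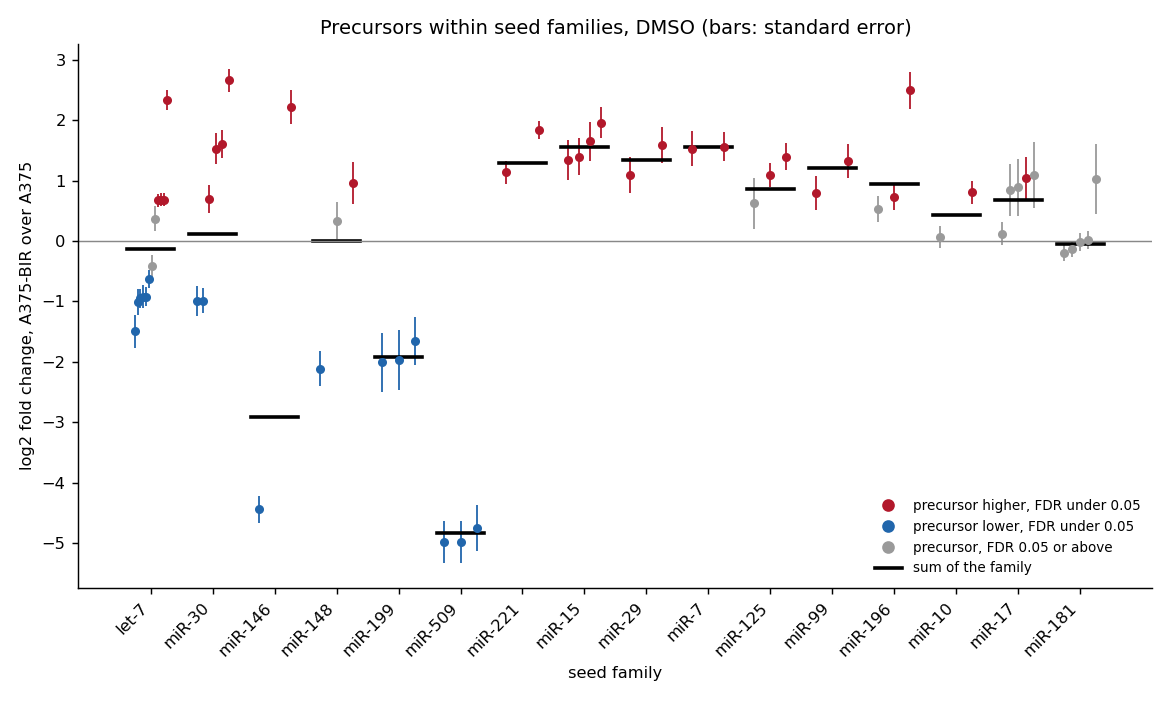
Points are tested precursors with their log2 fold change, A375-BIR over A375, and bars of 1 standard error, grouped by seed family on the x axis, and the black line is the log2 fold change of the summed family. The let-7, miR-30, miR-146 and miR-148 families hold red (higher) and blue (lower) points together, while the 4 tested miR-15 precursors are all higher and the 3 miR-199 precursors all lower. The miR-199 points rest on nearly the same counts and are not separate measurements.

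In other families all called members went in the same direction. The miR-15 family, which restrains cyclins and BCL2, rose from 587, 584 and 512 CPM to 1657, 1569.9 and 1718 CPM, a log2 fold change of 1.55 ± 0.29 (SE, edgeR FDR = 9.22e-04). All 4 of its tested precursors were higher, against 30.3% of all tested precursors, with MIR15B at 1.96, MIR424 at 1.65, MIR16-2 at 1.39 and MIR16-1 at 1.34, of which the MIR16 copies make the same mature strand. The miR-221 family, which targets the cell-cycle inhibitor p27, rose from 27221, 30092 and 24072 CPM to 75769, 71005 and 51645 CPM, a log2 fold change of 1.29 ± 0.20 (SE, edgeR FDR = 1.85e-04). MIR222 contributed 4597, 4396 and 4595 CPM and 16233, 16587 and 15961 CPM, a log2 fold change of 1.84 ± 0.15 (SE, edgeR FDR = 1.10e-07), and MIR221 one of 1.14 (edgeR FDR = 2.26e-04). Both precursors were high in all A375-BIR samples, and the groups did not overlap.

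The miR-29 family, known for repressing collagens, rose from 355, 439.9 and 397 CPM to 1049.9, 1152 and 835 CPM, a log2 fold change of 1.34 ± 0.26 (SE, edgeR FDR = 0.00114), with MIR29A at 1.59 and MIR29B1 at 1.09. The miR-7 sum had a log2 fold change of 1.55 ± 0.29 (SE, edgeR FDR = 0.00106). MIR34A, a p53 target, stood at 431, 243 and 347 CPM in A375 and 1059.9, 1318 and 712 CPM in A375-BIR, a log2 fold change of 1.61 ± 0.31 (SE, edgeR FDR = 6.28e-04). The miR-125 sum rose by 0.87 ± 0.24 (SE, edgeR FDR = 0.0104) and the miR-99 sum by 1.21 ± 0.24 (SE, edgeR FDR = 0.00122). The miR-125 call rested on A375-BIR replicate 3, at 6838 CPM against 3333 and 3883 CPM in the others. Without that sample the log2 fold change of the miR-125 sum was 0.49 (edgeR FDR = 0.0610). The miR-196 sum rose by 0.94 ± 0.22 (SE, edgeR FDR = 0.00375) and the miR-24 sum by 1.07 ± 0.22 (SE, edgeR FDR = 0.00161). The miR-199 sum fell from 428, 465 and 418 CPM to 144, 100.2 and 102 CPM, a log2 fold change of -1.92 ± 0.39 (SE, edgeR FDR = 0.00153).

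The miR-181 family, on which the study centres, had none of its 5 tested precursors called, against 46.3% of all tested precursors. The lowest edgeR FDR among them was 0.16, for MIR181D. MIR181A1 stood at 24867, 21776 and 20818 CPM in A375 and 24042, 21379 and 21285 CPM in A375-BIR, and MIR181A2 at 24579.8, 21503 and 20628 CPM and 24169, 21614 and 21617 CPM. Both overlapped between the lines, with log2 fold changes of -0.02 and 0.01. MIR181B1 had 6585, 6613 and 6477 CPM in A375 and 6051, 5474 and 5649.8 CPM in A375-BIR, lower without overlap, with a log2 fold change of -0.20 ± 0.13 (SE, edgeR FDR = 0.236). MIR181B2 was likewise lower without overlap, at -0.14 (edgeR FDR = 0.390). Over all tested precursors, the groups did not overlap for 61.1%. The sum of the family had a log2 fold change of -0.04 ± 0.15 (SE, edgeR FDR = 0.844). The miR-320 family, made without Drosha, had 0 of 3 tested precursors called with TMM and 3 of 3 lower with DESeq2's size factors. Over all 175 tested precursors, 16% were lower with TMM and 38 precursors were lower with DESeq2's size factors. The median log2 fold change of the family was -0.45 with TMM against 0.16 over all tested precursors.

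Precursors that lie within 10000 bases of each other on one strand were taken as a locus. Of 21 loci with at least 2 different tested miRNAs, all tested precursors were higher in A375-BIR in 6 and lower in 2, where over all tested precursors 30.3% were higher and 16% lower. In 5 some were called in 1 direction, 2 of these with precursors that resemble ribosomal RNA, in 6 none was called, and in 2 there were calls in both directions. The 6 loci with only higher precursors held MIR182 and MIR183, MIR15B and MIR16-2, MIR221 and MIR222, MIR29A and MIR29B1, MIR30E and MIR30C1, and MIR100 with MIRLET7A2. Among these, the calls of MIR183 and MIR30E were unsteady, as given above. Reads of the mature strands of MIRLET7A2, MIR16-2, MIR30C1 and MIR29B1 cannot be placed at these loci, since each has a copy elsewhere. The lower loci held MIR98 and MIRLET7F2, in an intron of HUWE1, and MIR30B and MIR30D. MIRLET7F2 likewise has a copy elsewhere, MIRLET7F1.

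Both loci with opposite calls contain a copy of let-7a. One holds MIRLET7A1, MIRLET7F1 and MIRLET7D, at 0.68, -0.92 and -0.92, and the other MIRLET7A3 and MIRLET7B, at 0.68 and -0.63. The 3 let-7a copies make the same mature strand, and the values cannot say from which locus its reads came. The third copy, MIRLET7A2, lies beside MIR100 and MIR125B1 on chromosome 11. There MIR100 rose from 2550.2, 1989 and 2397 CPM to 3696, 5152 and 8402 CPM, a log2 fold change of 1.32 ± 0.28 (SE, edgeR FDR = 0.00140), and MIR125B1 from 682, 759 and 946 CPM to 1495, 1616 and 1978 CPM, a log2 fold change of 1.09 ± 0.20 (SE, edgeR FDR = 5.41e-04). At the related cluster within MIR99AHG on chromosome 21, MIRLET7C was joined by MIR125B2, which rose from 371, 258 and 263 CPM to 589, 816 and 913 CPM, a log2 fold change of 1.39 ± 0.22 (SE, edgeR FDR = 1.70e-04). MIR125B1 and MIR125B2 make the same mature strand, so that reads of this strand cannot be placed at either cluster. In the chromosome 19 cluster of the same kind, 1 of 3 tested precursors was higher, near the 30.3% over all tested precursors. This was MIR99B, at 0.80 (edgeR FDR = 0.0296). That call was lost with DESeq2's size factors and without A375-BIR replicate 1 or A375 replicate 2 or 3.

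For clusters that exist in paired copies, counts this small are to be read against the 30.3% higher and 16% lower over all tested precursors. In the cluster of MIR23A, MIR27A and MIR24-2, 2 of 3 precursors were higher, MIR24-2 at 1.08 (edgeR FDR = 3.38e-04) and MIR27A at 1.14 (edgeR FDR = 0.00142). In the cluster of MIR23B and MIR27B, none of the 2 tested precursors passed, although MIR27B, at 0.42 (edgeR FDR = 0.132), passed with the replicate block (edgeR FDR = 0.0318). Whether the clusters differ was not tested. All miR-24 counts stood on MIR24-2, and MIR24-1, its copy in the other cluster, had no count in these samples. Since the copies make the same mature strand, the values cannot say from which cluster its reads came. In the MYC-driven cluster from MIR17 to MIR92A1, 0 of 4 tested precursors passed, although MIR17, at 0.84 (edgeR FDR = 0.125), passed with the replicate block (edgeR FDR = 0.0342). In the related cluster of MIR106B, MIR93 and MIR25 only MIR93 passed, at 1.05 (edgeR FDR = 0.0238), a call that DESeq2's size factors and 4 of the 6 left-out samples removed.

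**Figure D4:**
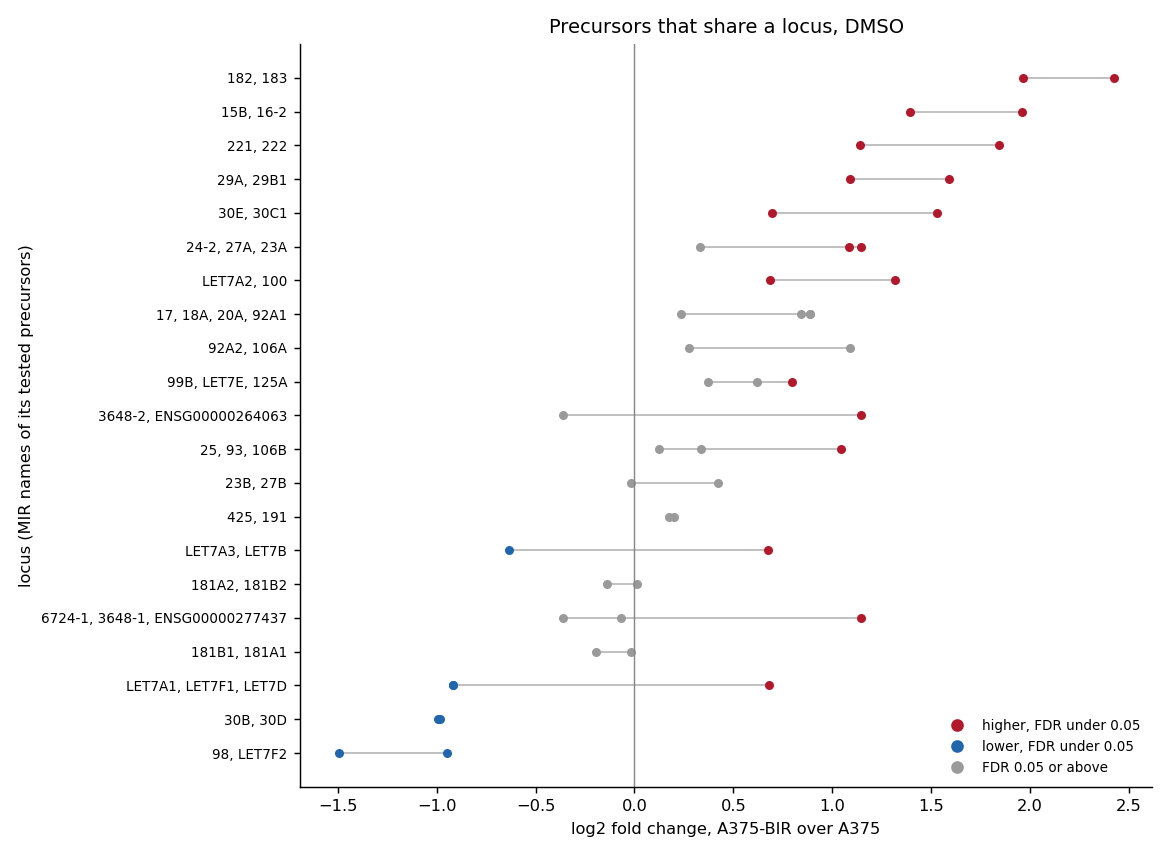
Each line is 1 of the 21 loci with at least 2 different tested miRNAs, its points are the tested precursors, and the x axis is the log2 fold change, A375-BIR over A375. Precursors of one locus mostly lie on the same side, and the loci with MIRLET7A1 and MIRLET7A3 hold red (higher) and blue (lower) points.

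Lists by role were chosen with earlier results of these data known, so their shares and medians are descriptive, and no list was tested as a set. The MAPK, AP-1 and growth-factor list had 5 of 7 members tested, of which 4 were higher in A375-BIR and none lower, against 30.3% higher and 16% lower over all tested precursors. The list had a median log2 fold change of 1.61 against 0.16 over all tested precursors. The higher members were MIR31, MIR34A, and MIR221 and MIR222, which share a locus. The exception was MIR21, an AP-1 target, at 19001, 13789 and 14509 CPM in A375 and 16650.2, 16249.6 and 12295 CPM in A375-BIR, overlapping, with a log2 fold change of -0.07 ± 0.17 (SE, edgeR FDR = 0.796), which was 0.05 without A375-BIR replicate 3. The NF-kB list had 3 of 6 members tested, MIR146A and MIR155 lower and MIR146B higher, so that the list has no common direction. The MYC and E2F list had 3 of 9 tested members higher (MIR93, MIR15B and MIR16-2) and none lower, close to the 30.3% higher over all tested precursors, with a median of 0.89 against 0.16. The MIR93 call is the unsteady one described above.

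The lists that follow are read against 30.3% higher and 16% lower over all tested precursors. The pigment and MITF list was divided, with MIR204 and MIR148A lower and MIR182, MIR183 and MIR148B higher among 6 tested members. Of the HOX-cluster list 3 of 5 tested members were higher, MIR196B, MIR196A2 at 0.74 (edgeR FDR = 0.0117) and MIR10A at 0.81 (edgeR FDR = 0.00252), and none was lower. The MIR196A2 call was lost without A375 replicate 2 (0.63, edgeR FDR = 0.0765) and with DESeq2's Wald test (DESeq2 FDR = 0.100). The mesenchymal list had 3 of 7 tested members higher, MIR100, MIR125B1 and MIR125B2, and 3 lower, the miR-199 precursors. The miR-199 precursors had nearly the same counts and are not separate measurements. Of the p53 list 1 of 3 tested members was higher, MIR34A, about the share over all tested precursors, and MIR210 was the single member of the hypoxia list.

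The labelled identity of the lines was set against miRNA markers of cell types. The melanocytic list, with 17 precursors, summed to 3197, 2992 and 2944 CPM in the A375 samples and to 208, 188 and 187 CPM in the A375-BIR samples. Its most abundant member was MIR204. The 4 tested members, MIR204 and the 3 MIR509 copies, were lower in A375-BIR, but the copies are a single measurement with few counts in A375-BIR, and they had enough counts for a test only through A375. In this list 6 members were at 0 in all samples, namely MIR507, MIR510 and the MIR514 precursors. MIR211 and the remaining members were below the filter. These sums use counts rounded for each precursor. The summed level of this list was thus higher in A375. In A375-BIR most of the sum was MIR204, at 163, 102 and 138 CPM. In A375-BIR replicate 2 the neural list, at 212 CPM, exceeded the melanocytic list, at 188 CPM. In A375-BIR replicates 1 and 3 the neural list was lower, at 136 and 62.2 CPM. The lists therefore do not clearly set melanocytic miRNAs apart in A375-BIR. The epithelial list summed to 47.9, 91.1 and 52.6 CPM in A375 and 72.5, 70.6 and 83.0 CPM in A375-BIR, with MIR205 the most abundant of 7 and MIR429 and MIR203A at 0. The neural list summed to 239, 251 and 199.8 CPM and 136, 212 and 62.2 CPM, led by MIR9-1, with the 3 MIR124 precursors at 0.

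The blood list summed to 59.9, 98.7 and 52.6 CPM in A375 and 27.2, 31.4 and 27.7 CPM in A375-BIR, led by MIR150, with MIR451A and MIR486-1 at 0. The pluripotent list summed to 83.8, 60.7 and 31.5 CPM and 9.06, 0 and 0 CPM, all of it MIR373, with 7 of 8 members at 0. The muscle list held 0, 1 and 6 expected counts in A375 and 0, 3 and 2 in A375-BIR, led by MIR1-2, with MIR133B, MIR206 and MIR208A at 0. The liver marker MIR122 was at 0, and the endothelial marker MIR126 stood at 23.9, 0 and 0 CPM and 45.3, 31.4 and 62.2 CPM. Fewer cells of a type and less RNA per cell cannot be told apart in such bulk samples.

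Below the filter, 671 precursors had an expected count above 0 in at least 1 of the 6 samples. Of these, 18 had no count in A375 and more than 3 counts over the A375-BIR samples, and 17 had the reverse. By this count, precursors seen in a single line were about as many on either side, with no allowance for depth. The 5 with the most counts were MIR224, MIR1270, MIR452, MIR513C and MIR4746. Each bound below sets the observed counts of one line against a limit of 3 counts over the other. Counting error in the observed counts is not allowed for, so the bounds are not strict minima. MIR224 had no count in A375 and 2, 12 and 20 counts in A375-BIR, a bound of 9.20-fold higher. MIR452, its neighbour within GABRE on the X chromosome, had no count in A375 and 7, 4 and 3 counts in A375-BIR, a bound of 3.79-fold higher. MIR1270 had no count in A375 and 6, 7 and 19 counts in A375-BIR, a bound of 8.65-fold higher. MIR4746 had 1, 4 and 5 counts in A375-BIR and none in A375, a bound of 2.70-fold higher. MIR513C, of the same X-linked family as miR-509, went the other way with 8, 3 and 3 counts in A375 and none in A375-BIR, a bound of 5.75-fold lower.

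These 5 were chosen for the absence of counts in 1 line, so no test of their separation is given. Which line a sample came from rests on the labels alone. Without A375 replicate 2 the bounds of MIR224, MIR1270, MIR452 and MIR4746 fell to 5.29, 4.98, 2.18 and 1.56, and without A375 replicate 1 that of MIR513C fell to 3.37. Among other miRNAs that the study discusses, MIR503 had 5, 1 and 1 counts in A375 and 8, 12 and 8 in A375-BIR, which overlap once scaled to CPM (exact permutation test on CPM, p = 0.2). MIR126 had 2, 0 and 0 and 5, 4 and 9 counts (exact permutation test, p = 0.1, a value that groups of 3 cannot go below). MIR424, in the cluster with MIR503 on the X chromosome, was tested and rose from 83.8, 106 and 73.6 CPM to 335, 314 and 207 CPM, a log2 fold change of 1.65 ± 0.32 (SE, edgeR FDR = 6.96e-04).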

How the data were processed

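The authors trimmed the reads, removed those on contaminating sequences and assigned the rest to hg38 with RSEM 1.2.25; the deposited values are expected counts of precursor genes, one column per sample. From these, counts were rounded and fitted for all 12 samples with edgeR 4.0.16 (R 4.3.3; filterByExpr, TMM, one mean per line and treatment, glmQLFit), and the contrast of the DMSO groups was tested at FDR 0.05. Expected counts were also summed over seed families before the same fit. DESeq2 1.42.0 gave size factors and a Wald test as alternatives, beside other filters, total counts, the 6 DMSO samples alone, a replicate block and each sample left out. Under the filter, MIR126 and MIR503 were compared by exact permutation tests.

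For a precursor at 0 a limit of 3 counts was used, which depth turns into 20.7 to 35.9 CPM. The fit was tested on simulated data, where 17 of 20 changes of 1 log2 unit, 16 of 17 of 2 and 1 of 133 unchanged precursors were called. These data had the same dispersion for every row, independent rows, balanced rises and falls and no outlying sample. The real data differ in these respects, so the rates need not hold for them. Samples of the same number deviated together (correlations 0.105, 0.219 and 0.303), while A375 replicate 1 with A375-BIR replicate 2 reached 0.1046. By the rule of over 0.1 in every pair of one number, the numbers were taken to pair the samples. This pairing comes from the data and not from the labels. The main fit leaves it out, and the fit with a replicate block, which uses it, is among the alternatives. Named precursors are the 12 highest and 12 lowest called with separate groups and the 5 with the most counts. Added to these are those named in the running text of the study's Results, up to 5 below the filter and examples of each list. The examples were picked after their values were seen. Members and lists were chosen with earlier results of these data known. Locations and hosts are from GENCODE v44 and mature strands from RefSeq. Targets were not analysed.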

Additional observations from a re-analysis of the deposited data

Results flagged for a closer look

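For 6 of the 175 tested precursors the log2 fold change between the lines, A375-BIR over A375, was not the same in dabrafenib as in DMSO, by edgeR's test of the interaction at an FDR of 0.05. At an unadjusted p under 0.05 there were 34. These values use the 6 dabrafenib samples as well. MIR146A had log2 fold changes of -4.44 in DMSO and -3.17 in dabrafenib, a difference of 1.27 ± 0.29 (SE, edgeR FDR = 0.0226). MIRLET7C had 2.34 in DMSO and 1.09 in dabrafenib, a difference of -1.25 ± 0.22 (SE, edgeR FDR = 0.0104). MIRLET7B stood at -0.63 in DMSO and -1.53 in dabrafenib, a difference of -0.89 ± 0.21 (SE, edgeR FDR = 0.0281), and MIR663A at -0.90 in DMSO and -2.15 in dabrafenib, a difference of -1.24 ± 0.28 (SE, edgeR FDR = 0.0226). MIR3648-1 had 1.14 in DMSO and -0.51 in dabrafenib, a difference of -1.65 ± 0.32 (SE, edgeR FDR = 0.0110). Its copy MIR3648-2 had 1.14 in DMSO and -0.49 in dabrafenib, a difference of -1.64 ± 0.33 (SE, edgeR FDR = 0.0110). The MIR3648 copies and MIR663A resemble ribosomal RNA, whose share of the counts was between 14.4% and 26.3% in the dabrafenib samples, against at most 5.59% in DMSO.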

How the results depend on the processing

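Of 64 precursors named in the text, 52 kept their direction and call under every alternative run for them, 9 kept the direction with a changed call and 3 turned. MIR598 fell below the filter on the 6 DMSO samples and has no value there. Of 17 named families these were 12, 1 and 4. Neither the count of called precursors nor that of families moved by more than 1.5 times, while counts within small lists did, as for miR-320. The count of precursors was 103 with at least 1 CPM in 3 samples, 96 without a filter, 88 with the filter on the 6 DMSO samples, 81 with DESeq2's size factors, 83 with total counts, 82 with only the 6 DMSO samples, 78 without rRNA-like precursors, 73 with DESeq2's Wald test, 70 with copies of one mature miRNA summed, and 68 to 80 with 1 sample left out. For families it was 49 with at least 1 CPM, 48 with DESeq2's size factors, 45 with total counts, 51 with only the 6 DMSO samples and 34 to 43 with 1 sample left out.

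With the replicate number as a block (paired fit on the 6 DMSO samples), 93 precursors were called, 59 higher and 34 lower, 80 of them among the 81, and 63 families. The replicate block changed no call of the 64, and 14 calls of 175 in all, among them MIR27B and MIR17, which the text mentions as members of clusters and which passed with it.

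Values near 0 turned, and the cause was not tested. MIR181A1 was 0.023 with at least 1 CPM, 0.051 without a filter and -0.086 to 0.062 with 1 sample left out. MIR181A2 was -0.036 with the filter on the 6 DMSO samples, -0.16 with DESeq2's size factors and with its Wald test, and -0.051 to 0.093 with 1 sample left out. With 1 sample left out, MIR21 was -0.15 to 0.090, the let-7 sum -0.21 to 0.00074, the miR-30 sum -0.089 to 0.44 and the miR-181 sum -0.12 to 0.019. The miR-148 sum was -0.065 with at least 1 CPM, -0.10 with DESeq2's size factors, -0.00095 with total counts, -0.0020 with only the 6 DMSO samples, -0.031 with the replicate block and -0.15 to 0.22 with 1 sample left out. With DESeq2's Wald test 67 of the 81 called precursors kept their call, and 7 of the named ones missed the threshold: MIR29B1 and MIR183 (DESeq2 FDR = 0.0502 for each), MIR93 (0.0551), MIR99B (0.0891), MIR196A2 (0.100), MIR148B (0.121) and MIR30E (0.141). Copies of one miRNA share reads, arms are not separated, and 1 derived line limits what the comparison says about resistance.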
